A study of Mus musculus with 16 samples.

Results

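The comparison described here set the cortex of Grn knockout mice treated with a progranulin-encoding virus against the cortex of saline-treated wild-type mice, and asked which transcripts still differed after treatment. KO AAV mice (n = 5, 3 males and 2 females, C57BL/6, Grn KO) received AAV-8D3:PGRN by tail vein at 300000000000 vector genomes, with a recorded treatment duration of 8 months. WT saline mice (n = 6, 3 males and 3 females, C57BL/6, Grn WT) received saline. Ages were 12 to 12.7 months in KO AAV and 12.2 to 12.93 months in WT saline. Members were the genes with at least 10 counts in at least 5 of these 11 libraries, which left 10244 of the 53801 genes in the count table. The 11 libraries are part of a series of 16, and the libraries of saline-treated knockout mice took no part in any filter, scaling or test unless named. The groups differ both in genotype and in what was injected, so an effect of the missing gene that treatment left in place and an effect of the virus or its product cannot be told apart here.

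Progranulin is a secreted glycoprotein that reaches the lysosome through sortilin or together with prosaposin, and is cut there into granulin peptides. Loss of both copies of GRN, the human gene, causes lysosomal storage disease in humans, and loss of one copy causes frontotemporal dementia. In mice the loss is known for activated microglia, reactive astrocytes and altered lysosomal enzymes in the ageing brain. The virus used here targets the liver and encodes human progranulin fused to 8D3, an antibody fragment that binds the mouse transferrin receptor and is carried across brain endothelium. The sources used here do not name the promoter that drives the transgene.

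Each library held the poly(A) RNA of 1 animal's cortex, counted at transcript 3′ ends, with 1614251 to 1867168 counts in KO AAV and 1626788 to 2119019 in WT saline (two-sided exact permutation p = 0.593). The mitochondrial share of counts was 23.2 ± 1.65% in KO AAV and 23.4 ± 1.42% in WT saline (SD, exact permutation p = 0.823). RNA integrity numbers were 9.3 to 9.6 in KO AAV and 8 to 9.5 in WT saline (exact permutation p = 0.0649). Xist and Ddx3y counts matched the recorded sex in all 11 libraries, and no pair of libraries of the same group agreed within sampling noise. All 18 excitatory layer markers of cortex were abundant enough to test. WT saline replicate 4 stood apart from the rest, with a median correlation to the other libraries of 0.935, where the other 10 lay between 0.954 and 0.969. KO AAV replicate 3 and WT saline replicate 2 had the highest striatal marker sums. In such bulk RNA, fewer cells of a type and less RNA per cell cannot be told apart.

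Grn was the single gene that differed between treated knockout and wild-type cortex at an adjusted p under 0.05. Grn (chromosome 11, 102430315 to 102437048, plus strand, GRCm38) had 0 counts in each of the 5 KO AAV libraries, against 36, 33, 28, 67, 16 and 46 counts in the 6 WT saline libraries. In depth-scaled units (CPM, the count scaled to a fixed total per library), that was 0 in KO AAV and 20.8 ± 9.32 in WT saline (SD, n = 6). With a floor of 3 counts over the 5 KO AAV libraries together, the KO AAV level was at least 61.0-fold lower (edgeR adjusted p = 0.000196). The measurement is of mouse Grn in cortex, so it checks the genotype and does not measure the human transgene in liver.

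Of the 10244 genes tested, 1 was called, which is 0.00976%, and 0 were called higher in KO AAV. At an unadjusted p under 0.05 the same edgeR fit had 537 genes (5.24%), of which 258 (2.52%) were higher and 279 (2.72%) lower in KO AAV. The share of 5.24% is close to the 5% that such a threshold passes by chance. The count of 537 turned on single libraries: it was 308 without KO AAV replicate 1, 355 without WT saline replicate 4, 828 without WT saline replicate 3 and 954 without WT saline replicate 5, with Grn alone called each time. DESeq2 also called Grn alone, with 431 genes at an unadjusted p under 0.05. In 34 genes (0.332%) every KO AAV library lay on one side of every WT saline library, 14 of them (0.137%) higher and 20 (0.195%) lower in KO AAV. The median log2 change over all tested genes was 0.00, with 50.8% of genes above 0.

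How large a remaining difference the data allow in a gene, taken by itself, is given by the 95% interval of its change. The interval lay wholly inside a 2-fold change in either direction for 9619 genes (93.9%) and inside a 1.5-fold change for 5848 genes (57.1%). It lay inside a 4-fold change for 99.9% of genes. Grn was the single gene whose interval lay wholly beyond 1.5-fold. Precision followed abundance: the median half-width on the log2 scale was 0.52 below a mean of 20 CPM, 0.34 from 20 to 100 CPM and 0.26 above 100 CPM. Changes smaller than a gene's half-width could therefore not be told from 0 at this depth and group size. A call over all genes asks for more than an interval clear of 0. Ctsc, described below, had a fitted 1.92-fold change and an interval clear of 0, with an edgeR adjusted p of 0.816. The 95% intervals hold for each gene by itself, not for all genes at once.

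**Figure D1:**
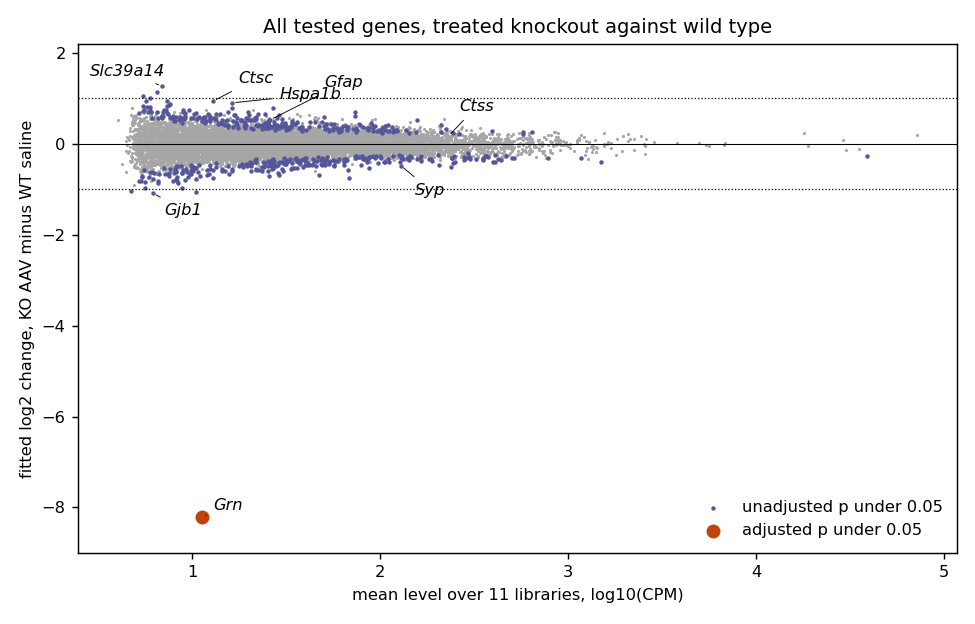
Fitted log2 change (KO AAV minus WT saline) against mean level over the 11 libraries on a log10(CPM) scale, 1 point per tested gene. Grey points have an unadjusted p of 0.05 or more, and the dotted lines mark a 2-fold change. Grn, drawn at its fitted value although all KO AAV libraries are at 0, is the single gene past the adjusted threshold.

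Ctsc, the gene of cathepsin C (dipeptidyl peptidase I, a lysosomal protease that activates granule serine proteases), came nearest to a call among genes higher in KO AAV. It measured 11.4, 15.5, 17.9, 21.8 and 21.04 CPM in KO AAV, against a lowest value of 6.85, a median of 9.31 and a highest of 11.2 CPM in WT saline. Every KO AAV library lay above every WT saline library, though the nearest values were close. Means were 17.5 ± 4.25 CPM in KO AAV (SD, n = 5) and 9.04 ± 1.62 CPM in WT saline (SD, n = 6). The log2 change was 0.94 (SE 0.21, 95% interval 0.50 to 1.38; edgeR unadjusted p = 0.000265), and it did not pass after adjustment over all genes (adjusted p = 0.816). It follows that the groups did not overlap among males or among females either, which is no further support. The log2 change was 0.67 (SE 0.29) within males and 1.27 (SE 0.31) within females, and the difference between the sexes did not pass (edgeR unadjusted p = 0.165). Ctsc lies on chromosome 7, 88278085 to 88310888.

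The other lysosomal genes did not share a direction. Of 46 tested genes of the lysosome list, 28 were above 0 and 18 below, with a median log2 change of 0.04, and 0 were called. At an unadjusted p under 0.05 there was 1, Ctsc, which is 2.17% of the list, against 5.24% of all genes. Ctss, the cathepsin S gene of microglia, measured 235 to 271 CPM in KO AAV and 199 to 235 CPM in WT saline. The KO AAV libraries all lay above the WT saline libraries by a margin smaller than the rounding of the counts, with a log2 change of 0.17 (SE 0.10, interval -0.04 to 0.37). Cathepsins B, D and Z (Ctsb, Ctsd, Ctsz) had log2 changes of 0.07 (SE 0.10), -0.05 (SE 0.13) and 0.04 (SE 0.22). Lipa, the lysosomal acid lipase gene, had -0.18 (SE 0.19).

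The genes of the proton pump that acidifies the lysosome, listed with the Ragulator complex that tethers mTORC1 there, leaned the other way: 15 of 23 tested were below 0, with a median log2 change of -0.11. Above 0 were 34.8% of the list, against 50.8% of all genes. None was called, and 3 had an unadjusted p under 0.05, all lower in KO AAV. That is 13% of the list, where 2.72% of all genes were lower at that threshold. Atp6v1g2, a neuronal subunit of the pump, measured 213 ± 27.4 CPM in KO AAV (SD, n = 5) and 282 ± 64.8 CPM in WT saline (SD, n = 6). Its log2 change was -0.41 (SE 0.15, edgeR adjusted p = 0.816). Atp6v0e2 measured 121 to 136 CPM in KO AAV and 140 to 213 CPM in WT saline, with no overlap, and a log2 change of -0.29 (SE 0.12). The highest of these WT saline values came from replicate 4, and Atp6v0e2 was at -0.20 without it.

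The progranulin partners were close to 0. Psap, which encodes prosaposin, measured 892 to 1573 CPM in KO AAV and 1074 to 1793 CPM in WT saline (log2 change -0.15, SE 0.15, interval -0.46 to 0.16). Sort1, the gene of the sortilin receptor, had a log2 change of -0.05 (SE 0.13). Tmem106b, a lysosomal membrane protein gene and a modifier of frontotemporal dementia risk, had 0.22 (SE 0.14), and 0.10 without WT saline replicate 4. Of 11 tested partners 5 were above 0 and 6 below, with a median of -0.02, and 0 had an unadjusted p under 0.05. Of 16 tested frontotemporal dementia risk genes 11 were above 0, with a median of 0.08, and Ctsc and Tbk1 had an unadjusted p under 0.05. These genes are 12.5% of the list, against 5.24% of all genes. Tbk1, a kinase of autophagy and innate immunity, had a log2 change of 0.36 (SE 0.16).

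**Figure D2:**
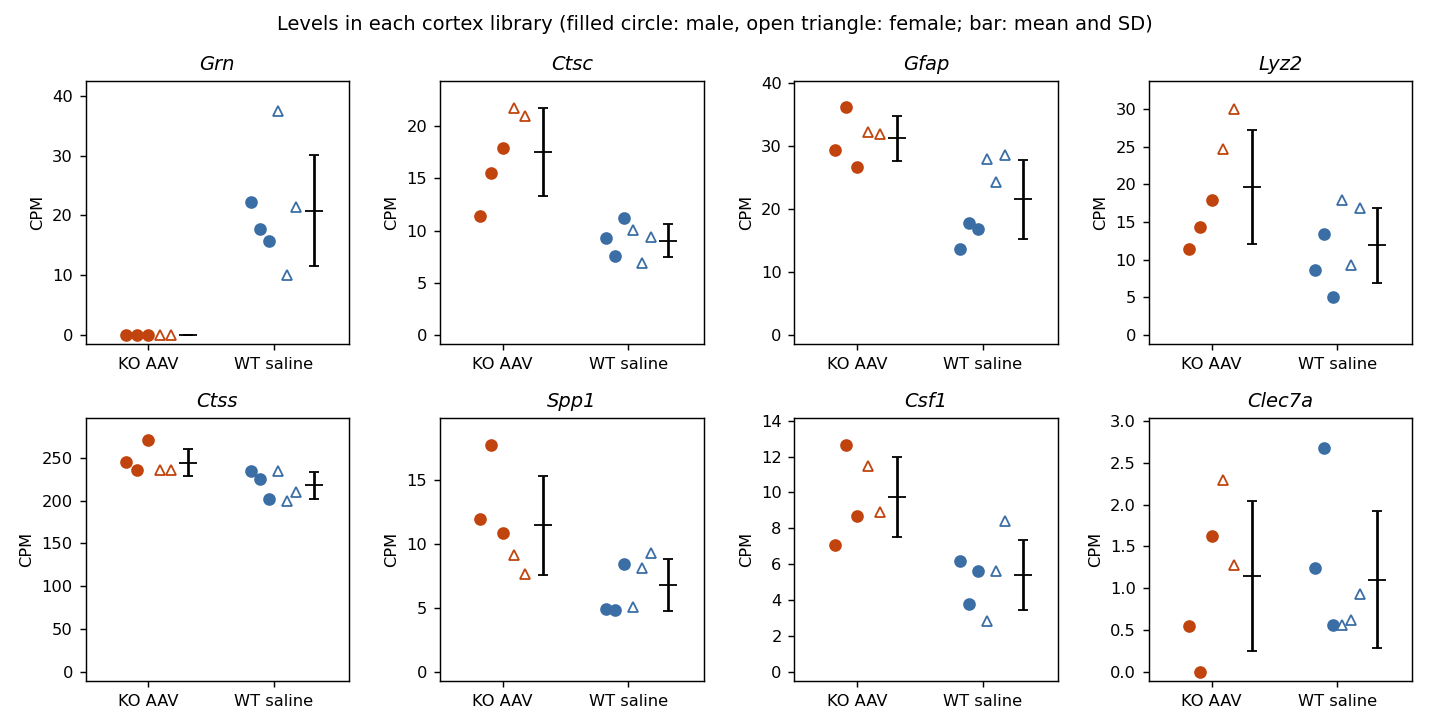
CPM of 8 genes in each library, KO AAV left and WT saline right in each panel, with the mean and SD beside the points. Filled circles are males and open triangles females. Grn is at 0 in all 5 KO AAV libraries, the groups do not overlap in Ctsc, and they overlap in Gfap, Lyz2, Spp1, Csf1 and Clec7a.

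Gfap, the intermediate filament gene of reactive astrocytes, also stood above wild type without passing the test. It measured 29.3, 36.2, 26.6, 32.1 and 31.9 CPM in KO AAV, against a lowest value of 13.6, a median of 20.99 and a highest of 28.5 CPM in WT saline. A single KO AAV library fell inside the WT saline range. The log2 change was 0.53 (SE 0.19, interval 0.14 to 0.92; edgeR unadjusted p = 0.0108, adjusted p = 0.816). Within males the groups did not overlap, with 26.6 to 36.2 CPM in KO AAV and 13.6 to 17.7 CPM in WT saline, a log2 change of 0.93 (SE 0.23). Within females they did not overlap either, with 31.9 and 32.1 CPM in KO AAV and 24.3 to 28.5 CPM in WT saline, a log2 change of 0.25 (SE 0.24). The change was 0.68 smaller on the log2 scale in females than in males (SE 0.31; edgeR unadjusted p = 0.0431), which did not pass over all genes (adjusted p = 1.00). WT saline females were also older, 12.7 to 12.93 months, than WT saline males, 12.2 to 12.43 months, so sex and age cannot be told apart in wild type. KO AAV females, at 12 to 12.23 months, were all younger than the WT saline females, so group and age cannot be told apart within females. That limit holds for every change within females and every difference between the sexes given here, in other genes and lists as in Gfap. Gfap lies on chromosome 11, 102887336 to 102900912, and its start is 457 kb from that of Grn.

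Beyond Gfap, the reactive astrocyte list had 8 of 30 members abundant enough to test, 6 above 0 and 2 below, with a median log2 change of 0.11 and Gfap alone at an unadjusted p under 0.05. Vim, the second intermediate filament gene of reactive astrocytes, measured 32.5 ± 3.55 CPM in KO AAV and 30.1 ± 5.15 CPM in WT saline (SD, n = 5 and 6), a log2 change of 0.11 (SE 0.15). Serpina3n, an inhibitor of serine proteases that marks reactive astrocytes, fell under the count minimum, with 22 counts over KO AAV and 17 over WT saline. Its two-sided exact permutation p was 0.0433, unadjusted, 1 of 8 such panel genes compared. The 20 homeostatic astrocyte genes had a median of -0.04, 12 of them below 0. S100b, a calcium-binding protein of astrocytes, had a log2 change of -0.34 (SE 0.15), and Fabp7, a fatty acid-binding protein, 0.55 (SE 0.27).

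Microglial genes held no call in either direction. The disease-associated microglia list had 22 of 31 members tested, 14 above 0 and 8 below, with a median log2 change of 0.08. At an unadjusted p under 0.05 there were 3, all higher, which were Csf1, Spp1 and Lyz2. That is 13.6% of the list, where 2.52% of all genes were higher at that threshold. The 14 homeostatic microglia genes had a median of -0.02, and the 16 pan-microglia and macrophage genes 0.06. P2ry12, the purinergic receptor of resting microglia, measured 51.6 to 81.5 CPM in KO AAV and 38.0 to 61.7 CPM in WT saline. Itgam, the integrin subunit known as CD11b, measured 27.5 to 40.1 CPM in KO AAV and 17.9 to 30.8 CPM in WT saline, a log2 change of 0.32 (SE 0.16).

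Lyz2, the lysozyme gene of myeloid cells, whose close paralog Lyz1 makes the count uncertain, measured 11.4, 14.4, 17.9, 24.7 and 29.96 CPM in KO AAV, against a lowest value of 5.04, a median of 11.4 and a highest of 17.9 CPM in WT saline. The groups overlapped, and females lay above males on average in both. The log2 change was 0.70 (SE 0.29, interval 0.09 to 1.30; edgeR unadjusted p = 0.0272). Spp1, the gene of the secreted phosphoprotein osteopontin, measured 12.0, 17.8, 10.8, 9.18 and 7.65 CPM in KO AAV and 4.83 to 9.34 CPM in WT saline. Its log2 change was 0.75 (SE 0.26) in all libraries, 1.14 (SE 0.34) in males and 0.16 (SE 0.40) in females, and the difference between the sexes did not pass (edgeR unadjusted p = 0.0764). Csf1, the growth factor that sustains microglia, measured 7.06 to 12.6 CPM in KO AAV and 2.80 to 8.41 CPM in WT saline, a log2 change of 0.83 (SE 0.27). None of these passed after adjustment (edgeR adjusted p = 0.816 for each).

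The receptor genes of activated microglia did not pass the test either. Trem2, a lipid-sensing receptor, measured 8.89 ± 2.01 CPM in KO AAV and 6.52 ± 3.20 CPM in WT saline (SD, n = 5 and 6), a log2 change of 0.41 whose interval ran from -0.24 to 1.07. Tyrobp, the adaptor through which Trem2 signals, had 0.11 (SE 0.16). Clec7a, a glucan receptor of activated microglia, fell under the count minimum, with 10 counts over KO AAV and 12 over WT saline (exact permutation p = 0.905, unadjusted). Also under the minimum, Cd68 had 40 counts in each group, Gpnmb 28 in KO AAV and 27 in WT saline, Lgals3 4 and 3, Cst7 4 and 4, and Itgax 1 and 0, in the same order. At such counts a difference of severalfold in the rarest of these was not detectable. Apoe, the lipid carrier gene of astrocytes and microglia, was at 1316 ± 121 CPM in KO AAV and 1367 ± 51.7 CPM in WT saline, a log2 change of -0.06 with an interval from -0.25 to 0.14.

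Complement genes were likewise near 0, with 5 of 7 tested members above 0 and a median of 0.06. C1qa, C1qb and C1qc, which together make C1q, the recognition unit of the classical pathway, had log2 changes of -0.22 (SE 0.20), 0.00 (SE 0.20) and 0.12 (SE 0.16). C4b, whose near-identical copy C4a is listed at 0 in all libraries, had 37 counts over KO AAV and 49 over WT saline (exact permutation p = 0.805, unadjusted). Interferon-response genes leaned lower, with 10 of 12 below 0 and a median of -0.13. That median was 0.11 with age as a term, 0.24 among males alone and -0.40 among females alone, and the difference between the sexes was not tested for the list. Rtp4, an interferon-induced gene, was the 1 member at an unadjusted p under 0.05, with a log2 change of -0.70 (SE 0.31). Of 7 antigen presentation genes 6 were below 0, with a median of -0.21, and B2m, the invariant chain of MHC class I, had 0.05 (SE 0.14).

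**Figure D3:**
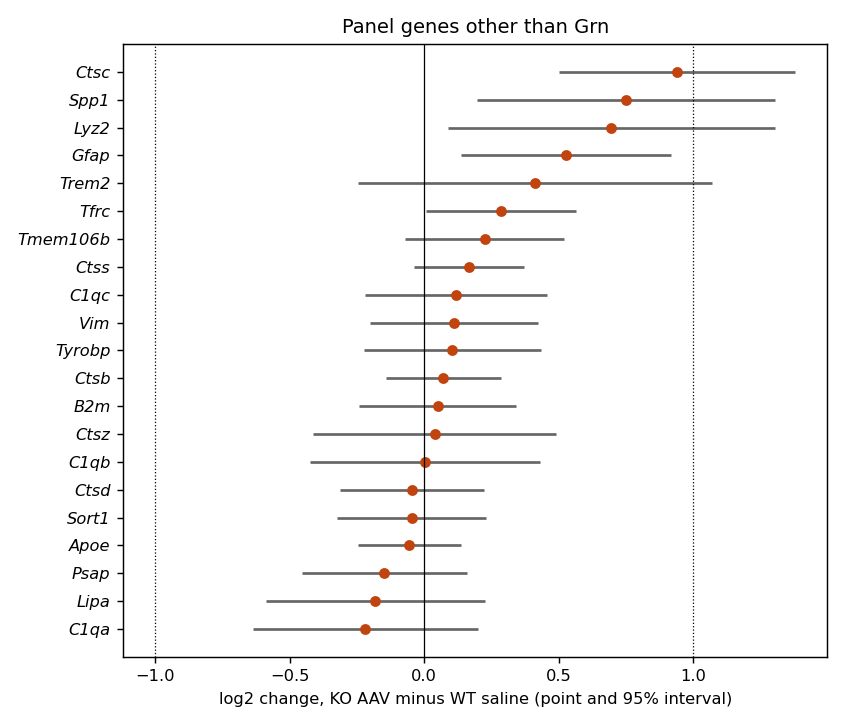
Log2 change (KO AAV minus WT saline) of the 21 tested panel genes other than Grn, each with its 95% interval. The dotted lines mark a 2-fold change. The intervals of Ctsc, Spp1, Lyz2, Gfap and Tfrc lie above 0, and none of the 21 passes after adjustment over all genes.

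Tfrc encodes the transferrin receptor, which the 8D3 part of the transgene product binds. It measured 152, 121, 108, 126 and 108 CPM in KO AAV, against a lowest value of 75.2, a median of 107 and a highest of 117 CPM in WT saline. The groups overlapped, with a log2 change of 0.29 (SE 0.13, interval 0.01 to 0.56; edgeR unadjusted p = 0.045, adjusted p = 0.816). The change was 0.47 (SE 0.19) within males and 0.09 (SE 0.19) within females, and the difference between the sexes did not pass (edgeR unadjusted p = 0.176). The iron-handling list had 13 tested members, 9 above 0, with a median of 0.09, and Tfrc was its single member at an unadjusted p under 0.05. Slc39a14, a zinc and iron transporter outside that list, had the highest fitted log2 change of the genes named here, at 10.2 ± 3.64 CPM in KO AAV and 4.14 ± 2.84 CPM in WT saline (SD, n = 5 and 6), a value of 1.27 (SE 0.39). Its groups overlapped, and it did not pass (edgeR adjusted p = 0.816).

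Among neurons, synaptic genes lay slightly lower in KO AAV, 24 of 35 below 0 with a median log2 change of -0.10. All 4 at an unadjusted p under 0.05 were lower, which is 11.4% of the list, where 2.72% of all genes were lower at that threshold. They were Syp, the gene of the vesicle protein synaptophysin, at -0.48 (SE 0.15), Slc17a7, the vesicular glutamate transporter, at -0.47 (SE 0.20), Vamp2, a vesicle SNARE, at -0.36 (SE 0.14), and Rab3a, a vesicle GTPase, at -0.32 (SE 0.14). Syp measured 86.9, 121, 97.6, 109 and 115 CPM in KO AAV, against a lowest value of 113, a median of 143 and a highest of 198 CPM in WT saline. The groups overlapped, and the highest WT saline values came from replicates 1 and 4. None of the 4 passed after adjustment. Neurofilament and neuronal injury genes had 6 of 7 below 0 with a median of -0.16, and Nefm, the medium neurofilament subunit, had -0.30 (SE 0.16).

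Subunits of oxidative phosphorylation encoded in the nucleus had 59 of 84 below 0, with a median log2 change of -0.08 and 2 at an unadjusted p under 0.05, both lower. That is 2.38% of the list, where 2.72% of all genes were lower at that threshold. Mitochondrially encoded protein genes had 7 of 8 tested below 0 with a median of -0.08. Of the 13 genes in that list, 4 (mt-Nd4l, mt-Co2, mt-Atp6 and mt-Atp8) had 0 counts in all 11 libraries, for a reason that was not tested. mt-Nd4, a subunit of complex I, had a log2 change of -0.26 (SE 0.12). Excitatory layer markers had a median of 0.02 and interneuron markers -0.04. The 16 striatal markers had a median of -0.01, and that value turned on single libraries. It was -0.28 without KO AAV replicate 3 and 0.36 without WT saline replicate 2. The summed CPM of these 16 genes was 1056 to 2772 in KO AAV and 843 to 3472 in WT saline, highest in those 2 libraries. Penk, the enkephalin precursor gene of striatal neurons, reached 542 CPM in that KO AAV library and 644 CPM in that WT saline library, against 117 to 303 CPM in the other 9. How much striatum entered each dissection was not tested.

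Genes of oligodendrocyte precursors leaned higher, 9 of 12 above 0 with a median log2 change of 0.14, which was 0.01 among females alone. At an unadjusted p under 0.05 were 4, all higher, which is 33.3% of the list, where 2.52% of all genes were higher at that threshold. They were Lhfpl3 at 0.57 (SE 0.22), Vcan, a matrix proteoglycan gene, at 0.56 (SE 0.24), Olig1 at 0.41 (SE 0.16) and Olig2 at 0.33 (SE 0.15), the last 2 being transcription factors of the oligodendrocyte lineage. Sox10, another such factor, was the lowest member at -0.37 (SE 0.19). Olig1 measured 272, 241, 250, 224 and 229 CPM in KO AAV, against a lowest value of 101, a median of 191 and a highest of 231 CPM in WT saline. The lowest of these came from replicate 4, without which the log2 change was 0.28. The 22 myelin and oligodendrocyte genes were balanced, 11 above and 11 below 0, with a median of 0.00. Gjb1, the connexin 32 gene of oligodendrocytes, was the lowest at -1.08 (SE 0.34), with 2.55 to 4.88 CPM in KO AAV and 3.27 to 13.6 CPM in WT saline. Its counts were 5, 8, 9, 7 and 4 in KO AAV and 22, 16, 12, 16, 13 and 7 in WT saline. Gjb1 thus met the count minimum through WT saline libraries alone. Had it been as low in WT saline as in KO AAV, it would not have been tested. The filter therefore favoured a negative value for Gjb1, and its size is uncertain.

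**Figure D4:**
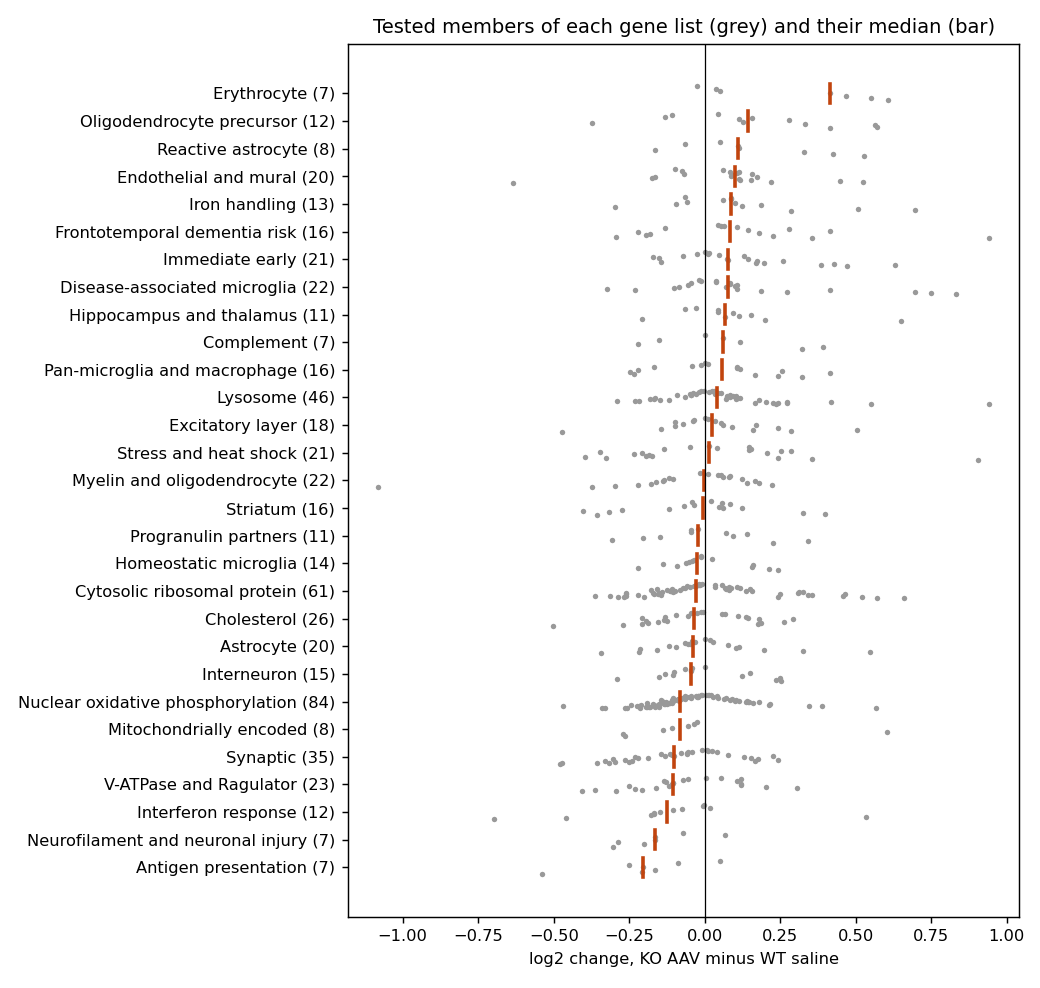
Log2 change (KO AAV minus WT saline) of each tested member of 29 gene lists (grey points, number tested in parentheses) and the median of the list (bar), ordered by median. List medians run from -0.21 to 0.41, and 0 members are past the adjusted threshold.

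Endothelial and mural genes had 14 of 20 above 0 and a median of 0.10, which was -0.08 among females alone. Egfl7, a secreted endothelial factor, went the other way, with 16.8 to 24.1 CPM in KO AAV and 26.3 to 53.7 CPM in WT saline and no overlap (log2 change -0.63, SE 0.19). Haemoglobin and other erythrocyte genes had the highest median of the 29 lists with at least 5 tested members, 0.41, with 6 of 7 above 0 and 0 at an unadjusted p under 0.05. Their summed level overlapped widely, 628 to 997 CPM in KO AAV and 566 to 976 CPM in WT saline, in animals that were perfused. Cholesterol genes had a median of -0.03. Mvd, an enzyme of the mevalonate pathway, had 17.9 to 21.2 CPM in KO AAV and 23.1 to 31.5 CPM in WT saline, with no overlap and a log2 change of -0.50 (SE 0.15). Immediate early genes had 15 of 21 above 0 with a median of 0.08, and 0 at an unadjusted p under 0.05. Hippocampal and thalamic markers had 8 of 11 above 0 with a median of 0.07. Of these, 1 (9.09%) was higher at that threshold, against 2.52% of all genes. Heat shock genes (median 0.01) and cytosolic ribosomal protein genes (-0.03) were close to the median of all genes.

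Markers of other cells that a cortex dissection can hold were sparse. Of 20 border macrophage and leukocyte markers 1 was abundant enough to test, Trbc2, a T cell receptor gene. It measured 17.4 to 35.6 CPM in KO AAV and 26.3 to 35.2 CPM in WT saline, a log2 change of -0.22. The T cell genes Cd3e, Cd3g and Cd8a, the B cell gene Cd79a, Nkg7 and Ly6g had 0 counts in all 11 libraries. The summed level of these 20 markers was 37.0 to 60.3 CPM in KO AAV and 40.4 to 63.7 CPM in WT saline. Trbc2 made up much of that sum while Cd3e, Cd3g and Cd8a were at 0, so the sum does not measure how many such cells were present. Of 13 choroid plexus and ependyma markers 2 were tested, and their sum was 155 to 189 CPM in KO AAV and 142 to 175 CPM in WT saline. Over all 31 lists, 563 distinct genes were tested, 30 of them (5.33%) had an unadjusted p under 0.05, against 5.24% of all tested genes, and 0 were called.

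The genes of lowest p after Grn and Ctsc, chosen over all genes, were also short of the adjusted threshold, each with an edgeR adjusted p of 0.816. Higher in KO AAV were Slitrk4, a neuronal transmembrane protein gene, with 74.6 to 114 CPM in KO AAV and 45.1 to 87.1 CPM in WT saline (log2 change 0.61, SE 0.16), and Mtmr1, a phosphoinositide phosphatase gene, at 0.65 (SE 0.17). Hspa1b, an inducible HSP70 gene and the 1 member of the heat shock list at an unadjusted p under 0.05, measured 12.5 to 30.4 CPM in KO AAV and 7.52 to 13.7 CPM in WT saline (log2 change 0.90, SE 0.23). Its near-identical neighbour Hspa1a makes that count uncertain. The non-coding RP23-393I12.3 was at 1.15 (SE 0.29), Frmd4b at 0.63 (SE 0.18), Fam228b at 0.54 (SE 0.16), Bms1, a ribosome assembly factor, at 0.67 (SE 0.20), Arid2, a chromatin remodeller subunit, at 0.48 (SE 0.14), and Cntnap5a at 0.58 (SE 0.17). In Frmd4b and Fam228b the groups did not overlap.

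Lower in KO AAV were Prr12 at -0.71 (SE 0.17) and Kcna6, a voltage-gated potassium channel gene, at -0.68 (SE 0.18). Kcna6 was tight in KO AAV, 34.8, 34.4, 34.7, 34.98 and 38.9 CPM, against a lowest value of 41.5, a median of 53.0 and a highest of 89.5 CPM in WT saline. The groups did not overlap, and the highest WT saline value was again replicate 4, without which the log2 change was -0.52. Trmt10a, a tRNA methyltransferase gene, was at -0.80 (SE 0.23), Tmem44 at -0.57 (SE 0.16), Snx21, a sorting nexin gene, at -0.71 (SE 0.21), Tsr3, a ribosomal RNA modifying enzyme gene, at -1.05 (SE 0.32) and RP23-359F12.1 at -0.97 (SE 0.29). Of the 34 genes without overlap, those named here are Grn, Ctsc, Ctss, Frmd4b, Fam228b, Kcna6, Mvd, Egfl7 and Atp6v0e2.

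Around the deleted gene, 124 genes within 5 Mb of Grn on chromosome 11 were tested, 50 above 0 and 74 below, with a median log2 change of -0.07. At an unadjusted p under 0.05 were 4 higher and 7 lower, 8.87% of them, against 5.24% of all genes. Within 1 Mb there were 32, 16 on each side, with a median of -0.02. At that threshold were 3 higher and 3 lower, 18.8% of these 32. None but Grn was called in the window. Fam171a2, on the minus strand, overlaps the 3′ end of Grn by 68 bases (102436981 to 102447682). It measured 45.1, 33.3, 42.3, 63.1 and 63.7 CPM in KO AAV, against a lowest value of 45.4, a median of 73.7 and a highest of 162 CPM in WT saline. The groups overlapped, with a log2 change of -0.75 (SE 0.27; edgeR unadjusted p = 0.0111, adjusted p = 0.816). It was -0.46 without WT saline replicate 4, which held both the highest Fam171a2 and the highest Grn value. With no filter on low counts Fam171a2 passed (edgeR adjusted p = 0.00719). The sources used here do not give the strand setting of the counting, so reads of the overlap cannot be assigned to Grn or Fam171a2 with certainty. Slc25a39, the nearest tested gene on the other side, 22368 bases before Grn, had a log2 change of -0.14 (SE 0.17).

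**Figure D5:**
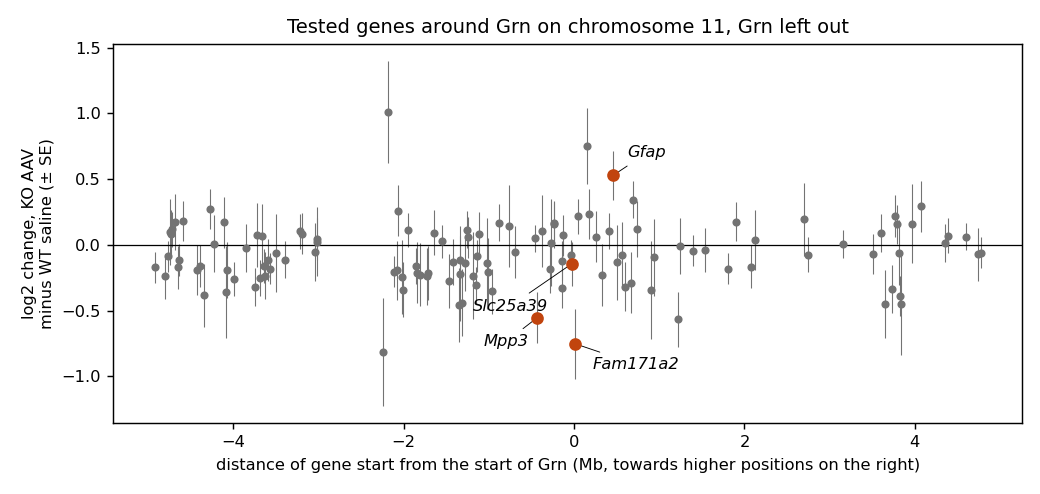
Log2 change (KO AAV minus WT saline) with its SE for the tested genes within 5 Mb of the start of Grn, against distance in Mb, with Grn left out. Fam171a2, next to Grn, lies at -0.75, Slc25a39 at -0.14, Gfap at 0.53 and Mpp3 at -0.55, and 0 of these genes pass the adjusted threshold.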

How the data were processed

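Cortex RNA of 11 mice (5 KO AAV, 6 WT saline) was compared, 1 library per animal. The labels give group, age and RNA integrity number, and a deposited annotation table gives sex and how long treatment lasted. Per the labels' protocols, frozen tissue of perfused animals gave QuantSeq 3' libraries with unique molecular identifiers for removing PCR duplicates. Per the submitters' processing notes, FastQC 0.11.5, STAR, MultiQC 1.0, R 4.2, edgeR 3.40.2 and GRCm38.p6 were used. The sources used here do not name the counting program, its strand setting or the annotation release.

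The authors deposited raw counts per gene with at most 2 significant digits, so the 33646 counts of 100 or more in these libraries (83.8% of all counts) are rounded by at most 5%. The authors also deposited a depth-scaled signal (CPM) and a normalization factor, a ratio that multiplies the library size. Deposited values were used as they stand, and the signal entered alternatives alone.

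Genes with at least 10 counts in at least 5 libraries were scaled by TMM and tested with edgeR 4.0.16's quasi-likelihood test (R 4.3.3), with Benjamini-Hochberg adjustment over all tested genes and a threshold of 0.05. CPM in the text are counts over the TMM-scaled totals of the tested genes, and intervals are the log2 change plus or minus a t quantile times its SE. The common biological coefficient of variation was 0.17. For depth and for genes under the minimum, exact permutation tests (two-sided) ran over 462 regroupings (smallest p 0.004329). Positions come from GENCODE M21, which holds 53620 of the gene identifiers. Alternatives used DESeq2 1.42.0, limma 3.58.1 and other filters, scalings, covariates and left-out libraries.

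The members, gene lists and tests were chosen with earlier results of these data known, so no list is independent evidence of its direction. Named are Grn, the 10 genes of lowest p in each direction, a panel of 30 genes, in each list the 2 genes of lowest p and the 5 genes whose intervals lie furthest from 0. Fam171a2, Pnrc1, Vcan, Olig2, Rab3a, Slc25a39 and Penk were added after their values were seen. Limits from counting (3 counts for a gene at 0) cover counting error only.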

Additional observations from a re-analysis of the deposited data

Results flagged for a closer look

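In all, 220 sets of values, each a named gene's CPM or 1 of 3 library measures (total counts, mitochondrial share, median correlation with the other libraries) in 1 group, were searched for a library whose gap to the rest was large against the group's range, and 17 (7.73%) held one. Chance flags about 1 in 20 groups, or 5%. WT saline replicate 4 was the library in 6 of the 17. It was the highest of WT saline in Egfl7 (53.7 CPM, next 36.5), Atp6v0e2 (213 CPM, next 154), Calr (269 CPM, next 185) and Atp5k (727 CPM, next 467), and the lowest in Gad1 (129 CPM, next 207) and Cnr1 (78.3 CPM, next 117). WT saline replicate 2 was the highest in the striatal genes Ppp1r1b (376 CPM, next 146) and Penk (644 CPM, next 303), and in Clec7a (2.68 CPM, next 1.24). WT saline replicate 3 was the highest in the haemoglobin gene Hbb-bt (61.7 CPM, next 30.8).

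In KO AAV, replicate 3 was the highest in Ctss (271 CPM, next 245) and the lowest in Egfl7 (16.8 CPM, next 22.4). Replicate 4 was the highest in Rab3a (516 CPM, next 446) and the lowest in Rora (161 CPM, next 178). Replicate 5 was the highest in Kcna6 (38.9 CPM, next 34.98) and Pmvk (29.96 CPM, next 23.9). Itgax was at 0.543 CPM, a single count, in replicate 1 and at 0 in the other KO AAV libraries. None of these genes is called, and the cause of the single values was not tested.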

How the results depend on the processing

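Grn alone was called in 25 of 27 other settings, which covered RLE scaling or library totals alone, 3 other filters, DESeq2, limma on voom weights or on the deposited CPM, robust edgeR, 1 fit over all 16 libraries, sex, age or replicate number as a term, males or females alone, counts narrowed by the deposited CPM, and each library left out in turn. The exceptions were no filter on low counts, with 3 genes called (Grn, Fam171a2 and Pnrc1, a nuclear receptor coactivator gene at a log2 change of 0.70, adjusted p = 0.0182), and females alone, 2 against 3 libraries, with 0 genes called by edgeR and 185 at an unadjusted p under 0.05. In females alone Grn, still at 0 counts in KO AAV, had a fitted log2 value of -8.36 and an adjusted p of 0.502 with fewer samples. Each fit without 1 library called 1 gene. The replicate block also called 1 gene, Grn. Deviations of same-numbered samples correlated between -0.15 and 0.25, where those of samples with other numbers ran from -0.31 to 0.35. Replicate 4 had the 0.25, above its -0.21 to 0.09 with other numbers. So few values cannot show whether replicate numbers pair the samples. Females alone, the narrowed counts and a test of sex by group, which called 0 genes (199 unadjusted), were added after seeing the data. Ctsc was called in none of the 27 settings (adjusted p 0.186 to 1.00), nor was Gfap (0.502 to 1.00). The striatal median was 0.54 in females and -0.39 in males. Rounding of the deposited counts and group sizes of 5 and 6 limit which changes could be seen.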
